A study of Mus musculus with 4 samples.

Results

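The 10 genes described here encode cytokine and growth factor receptors of microglia. They are the chains of the interleukin-10 receptor (Il10ra, Il10rb), the interleukin-4 and interleukin-13 receptors (Il4ra, Il13ra1), the interleukin-6 receptor (Il6ra, Il6st), the colony-stimulating factor receptors (Csf1r, Csf2ra, Csf2rb) and the ligand-binding chain of the interferon-gamma receptor (Ifngr1). They were chosen by name, as a functional group, out of 22180 genes measured with a probe set that carries exactly 1 gene symbol. The group was set up because Il10ra was low at 10 µM nimodipine and not at 20 µM, so the values of Il10ra at these doses chose it and are given as a description. All 10 genes were found, each with 1 probe set, and the mean of each over the arrays was above the median of all values.

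The cells were N9, an immortalised line of mouse microglia, and the measurement was total RNA on Affymetrix arrays, in log2 units after RMA, a procedure that corrects background, equalises the arrays and summarises probes. Vehicle was given to the cells of 2 arrays, 10 µM nimodipine to those of 1 array and 20 µM nimodipine to those of 1 array. Nimodipine is a dihydropyridine, a blocker of L-type voltage-gated calcium channels, and the series title names the action of dihydropyridines on murine microglia as its question. All 4 arrays came from the same line under the same medium, and the duration of exposure is not given in the sources used here. The labels do not say whether the vehicle arrays came from separate cultures, or which vehicle array belongs with which dose.

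Cytokine receptors of this kind have no enzyme of their own. A ligand-binding chain pairs with a second chain, often shared by several cytokines, and the kinases of the JAK family bound to both chains then activate STAT transcription factors. The receptor for interleukin-10 is the main brake on inflammatory gene expression in macrophages and microglia and acts through STAT3. Csf1r differs from the rest in being a receptor tyrosine kinase, and microglia depend on its signal for survival.

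The promoters of Il6ra and Csf2ra are shown because, after Il10ra, Il6ra had the lowest value against vehicle at 10 µM of the group and Csf2ra the highest. RefSeq's promoter table (GRCm38.p6, 250 bases before to 50 bases after the start) held 6 of the 10 genes, namely Il6ra, Il4ra, Ifngr1, Il6st, Csf2ra and Il13ra1. Both windows lie on the minus strand, Il6ra at chr3:89913147-89913446 and Csf2ra at chr19:61228369-61228668, and capitals mark matches to GAGGAA, the core bound by the macrophage factor PU.1, on either strand.
Il6ra: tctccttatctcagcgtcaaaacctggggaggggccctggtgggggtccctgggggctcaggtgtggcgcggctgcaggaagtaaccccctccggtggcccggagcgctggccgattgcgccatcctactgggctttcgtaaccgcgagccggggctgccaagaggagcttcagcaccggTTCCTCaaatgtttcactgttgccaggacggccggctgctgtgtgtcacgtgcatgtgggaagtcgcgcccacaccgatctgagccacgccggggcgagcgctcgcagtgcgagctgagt
Csf2ra: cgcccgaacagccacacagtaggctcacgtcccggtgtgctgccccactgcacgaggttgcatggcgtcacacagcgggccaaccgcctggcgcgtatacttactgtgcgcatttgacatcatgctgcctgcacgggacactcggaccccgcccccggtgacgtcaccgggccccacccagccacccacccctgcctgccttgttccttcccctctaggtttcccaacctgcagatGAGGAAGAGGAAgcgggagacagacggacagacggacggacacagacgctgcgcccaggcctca
The Il6ra window held 1 match and the Csf2ra window 2 adjoining matches, and the other 4 windows held 0. Among all 32851 promoters of the table, 28.3% held at least 1 match. The STAT core TTCNNNGAA, which reads the same on both strands, was in 0 of the 6 windows and in 8.3% of all promoters. These matches describe the letters of the windows only.

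At 10 µM, 8 of the 10 receptor genes lay below both vehicle arrays and 2, Csf2ra and Il6st, lay above both, beside 35.4% and 39.1% of all genes on the same array. The median difference from the vehicle mean was -0.31 on the log2 scale, beside 0.01 for all genes, and -0.28 with Il10ra left out. Il10ra and Il6ra were lower by 1 or more, and 0 of the 10 were higher by 1 or more. Among all genes, 1.06% were lower by 1 or more at this dose and 0.514% higher, and among genes at least as bright as the median, 1.76% were lower by 1 or more. At 20 µM, 6 genes lay below both vehicle arrays, 2 above both and 2 between them, and of all genes 35.1% lay below both and 34.5% above both. The median difference there was -0.11, beside -0.00 for all genes, and 0 of 10 passed a difference of 1, beside 0.0857% of all genes. For 9 of the 10 genes the difference at 10 µM was the larger in size, Il4ra being the exception. The share of all genes for which this held was not counted. Of all 22180 genes, 348 were past 1 at 10 µM and 19 at 20 µM, so larger differences at 10 µM were not particular to the receptors. The vehicle arrays differed from each other by a median of -0.04 in these genes, with 0 of 10 past 1, beside 0.113% of all genes.

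**Figure D1:**
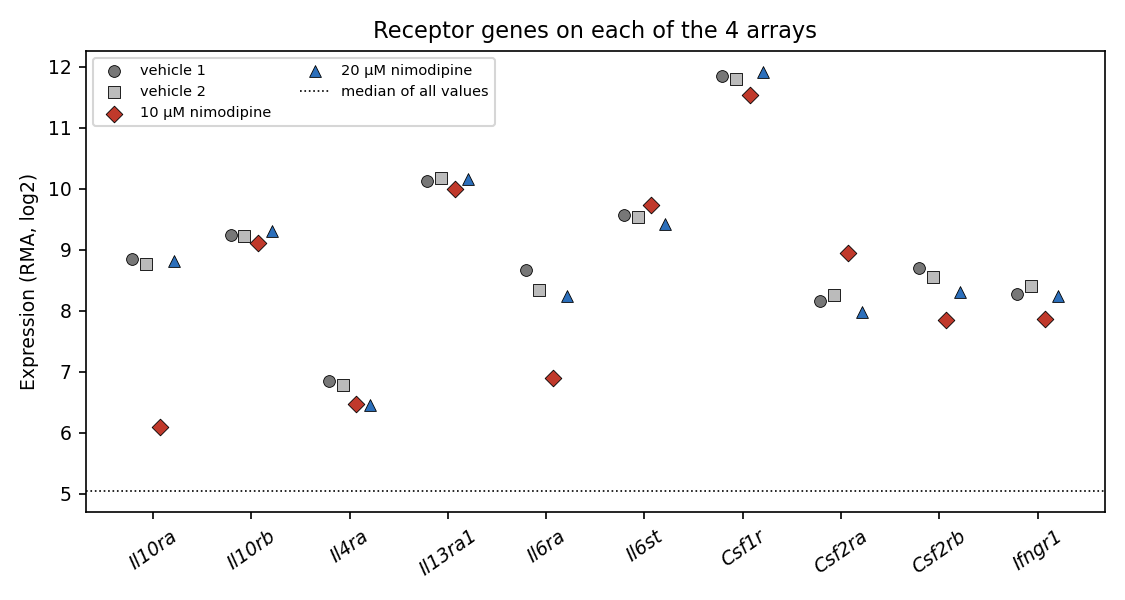
Expression (RMA, log2) of the 10 receptor genes on each array, with vehicle 1, vehicle 2, 10 µM and 20 µM from left to right for each gene and a dotted line at the median of all values, 5.04. Il10ra at 6.08 and Il6ra at 6.89 on the 10 µM array stand clear of their other 3 values.

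Il10ra, the ligand-binding chain of the interleukin-10 receptor, measured 8.84 and 8.76 under vehicle, 6.08 at 10 µM and 8.82 at 20 µM. The 10 µM array was the low one, and the 20 µM array lay between the vehicle arrays. The difference at 10 µM was -2.72, a 6.57-fold lower value, and the SD of the vehicle pair was 0.05 (n = 2). Among the differences of all 22180 genes at that dose it held rank 4 from the lowest. Il10rb, the second chain, which is shared with the receptors for interleukin-22 and the lambda interferons, measured 9.24 and 9.23 under vehicle, 9.11 at 10 µM and 9.31 at 20 µM. Its differences of -0.12 and 0.07 lay on opposite sides of the vehicle arrays, which were -0.02 apart. The difference of Il10ra minus that of Il10rb was -2.60 on the log2 scale at 10 µM and -0.05 at 20 µM, beside -0.06 between the vehicle arrays.

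Il6ra binds interleukin-6 and hands it to the shared signalling chain gp130, which Il6st encodes. Il6ra measured 8.67 and 8.35 under vehicle, 6.89 at 10 µM and 8.23 at 20 µM. Both nimodipine arrays lay below both vehicle arrays, but the difference at 20 µM, -0.28, was smaller than the -0.33 between the vehicle arrays. At 10 µM the difference was -1.62, a 3.07-fold lower value at rank 49 from the bottom of all genes. Il6st measured 9.57 and 9.53 under vehicle, 9.73 at 10 µM and 9.42 at 20 µM. It was thus above vehicle by 0.18 at the lower dose and differed by -0.13 at the higher dose. The difference of Il6ra minus that of Il6st was -1.80 at 10 µM and -0.14 at 20 µM, beside -0.29 between the vehicle arrays.

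Il4ra, the chain common to the receptors for interleukin-4 and interleukin-13, was the only one of the 10 genes with nearly equal differences at both doses. It measured 6.85 and 6.78 under vehicle, 6.48 at 10 µM and 6.46 at 20 µM, so both nimodipine arrays were low and the groups did not overlap. The differences were -0.34 and -0.36, and the vehicle arrays were -0.06 apart. Il13ra1, which joins Il4ra to form the receptor for both cytokines on myeloid cells, measured 10.12 and 10.17 under vehicle, 10.00 at 10 µM and 10.16 at 20 µM. Its difference was -0.15 at 10 µM, and its 20 µM value lay between the vehicle values.

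The chains of the granulocyte-macrophage colony-stimulating factor receptor had differences of opposite sign at 10 µM. Csf2ra, the ligand-binding chain, measured 8.16 and 8.25 under vehicle, 8.94 at 10 µM and 7.98 at 20 µM. Of these values the 10 µM one was the highest and the 20 µM one the lowest, with differences of 0.74 and -0.22. The 10 µM value was 1.67-fold above the vehicle mean, at rank 260 from the top of all genes. Csf2rb, the signalling chain that interleukin-3 and interleukin-5 also use, measured 8.69 and 8.55 under vehicle, 7.85 at 10 µM and 8.30 at 20 µM. Both nimodipine arrays were below both vehicle arrays, by -0.77 and -0.32 from the vehicle mean. The difference of Csf2ra minus that of Csf2rb was 1.50 at 10 µM and 0.09 at 20 µM, beside 0.24 between the vehicle arrays. Csf2rb2, a mouse paralog that serves interleukin-3, measured 9.83 and 9.61 under vehicle, 9.24 at 10 µM and 9.70 at 20 µM. The paralogs are close in sequence, and hybridisation of each transcript to the probes of the other was not tested.

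Csf1r, the receptor for colony-stimulating factor 1 and interleukin-34, measured 11.85 and 11.80 under vehicle, 11.54 at 10 µM and 11.92 at 20 µM. It was lowest at 10 µM with a difference of -0.28. At 20 µM it was above both vehicle arrays, with a difference of 0.09 from the vehicle mean. Ifngr1 measured 8.27 and 8.40 under vehicle, 7.86 at 10 µM and 8.24 at 20 µM. Its 20 µM value was below the lower vehicle value by less than the vehicle arrays differed, which was 0.13, while at 10 µM the difference was -0.48. Ifngr2, the second chain of the interferon-gamma receptor and not one of the 10, was higher at 10 µM by 0.38 and at 20 µM by 0.05.

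**Figure D2:**
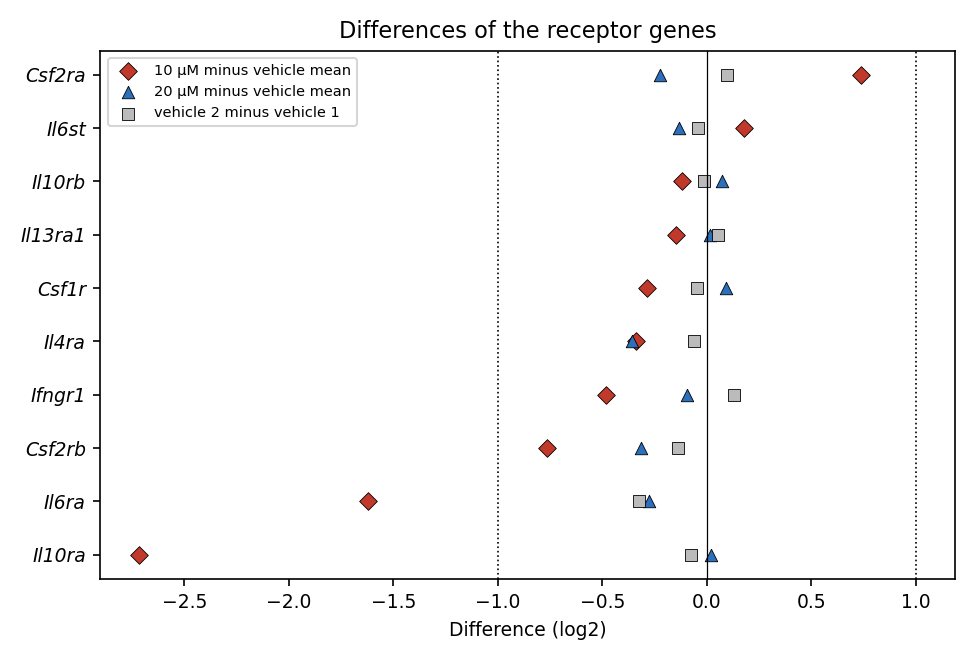
Difference in log2 expression for each receptor gene at 10 µM (red diamonds) and 20 µM (blue triangles) from the vehicle mean, with the difference between the vehicle arrays as grey squares and dotted lines at a difference of 1 each way. The 10 µM points run from -2.72 for Il10ra to 0.74 for Csf2ra, and no 20 µM point lies beyond -0.36.

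**Figure D3:**
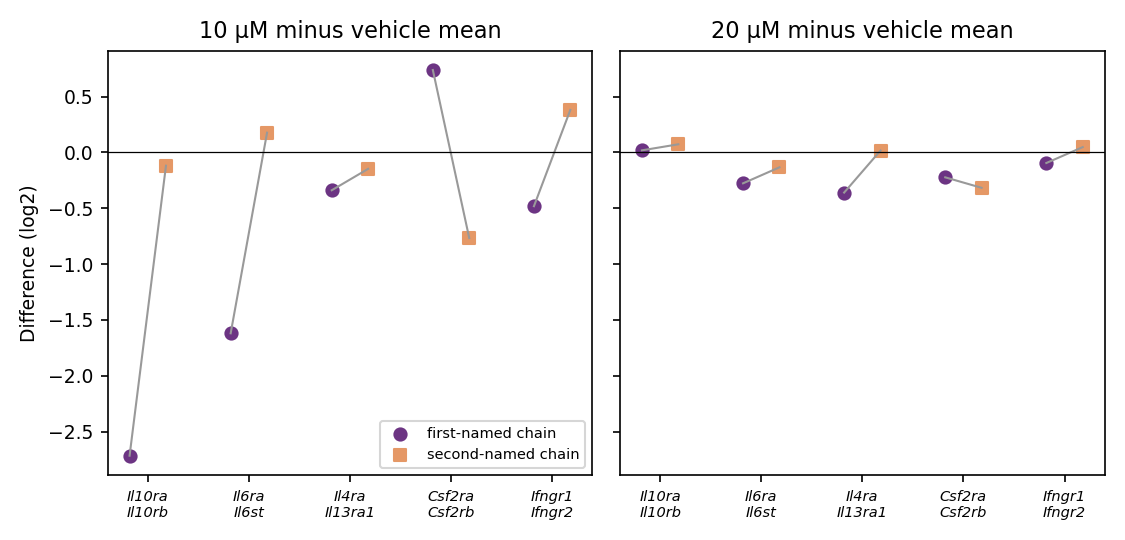
Differences from the vehicle mean (log2) at 10 µM, left, and 20 µM, right, for the chains of 5 receptors, each pair joined by a line with the first-named chain as a circle and the second as a square. At 10 µM the pairs of the interleukin-10, interleukin-6 and granulocyte-macrophage receptors are apart by -2.60, -1.80 and 1.50, and at 20 µM by -0.05, -0.14 and 0.09.

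The comparison tested took both nimodipine arrays as 1 group of 2 against the 2 vehicle arrays, and that group's spread contains the difference between the doses. limma called 0 of the 22180 genes at an adjusted p under 0.05, the background share being 0%, and thus 0 of the 10 receptor genes. Before adjustment, p was under 0.05 for 1191 genes, 5.37% of all, and for 2 of the 10, Il4ra and Csf2rb. Il4ra differed by -0.35 ± 0.12 (SE from limma, 2 arrays a group) and Csf2rb by -0.54 ± 0.18, each with a limma adjusted p of 0.792. Il6ra differed by -0.95 ± 0.42 and Ifngr1 by -0.29 ± 0.17, with the same adjusted p. Without the 10 µM array these values were -0.277 for Il6ra, -0.0952 for Ifngr1 and -0.317 for Csf2rb. These 4 genes lay below both vehicle arrays at both doses, as did 18.2% of all genes, and 0 of the 10 lay above both at both doses, beside 19.2% of all genes. For Csf2ra, Csf1r, Il6st and Il10rb the doses lay outside the vehicle arrays on opposite sides, as they did for 18.9% of all genes. Without the 20 µM array the differences were -2.72 for Il10ra and -1.62 for Il6ra, with 1 nimodipine array in the fit. That fit is the contrast in which Il10ra was picked, and the 10 genes were chosen with it known. It therefore supports nothing about these genes.

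The profile of Il10ra over the 4 arrays, with each gene centred on its vehicle mean, was compared with those of 11732 other genes by Euclidean distance. The nearest were Cytip, an adaptor of the integrin regulator cytohesin, at a distance of 0.23 log2 units, Mturn at 0.30 and Tbc1d30 at 0.36. They were followed by Ccng2, an unconventional cyclin, at 0.40, the leukotriene receptor gene Cysltr1 at 0.49 and Ddit4, an inhibitor of mTORC1 signalling, at 0.54. Cytip measured 8.87 and 8.91 under vehicle, 6.06 at 10 µM and 8.73 at 20 µM. All 6 were low on the 10 µM array, by -2.20 to -2.83, and their differences at 20 µM ran from -0.37 to -0.08. The likeness was sought for this shape and rests on 1 low array.

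**Figure D4:**
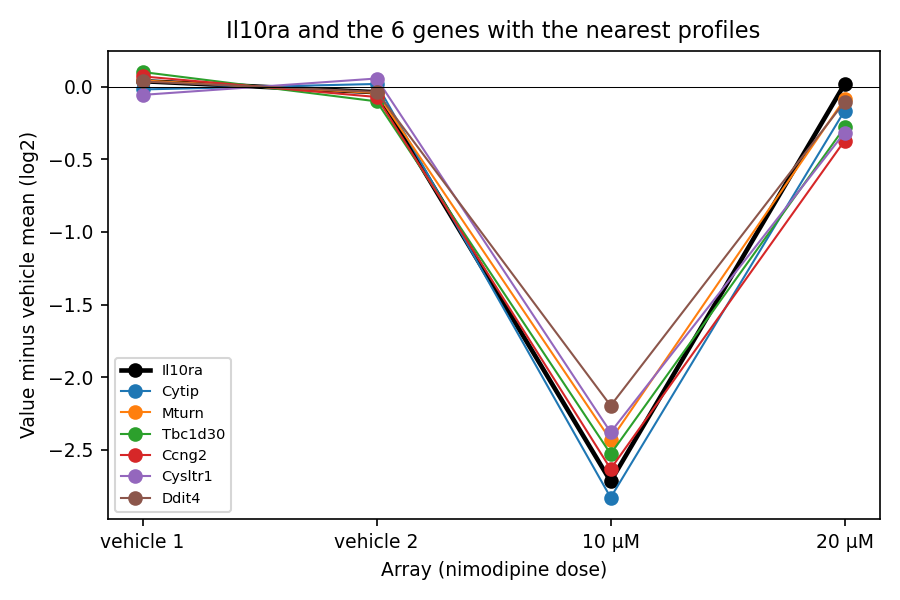
Values minus the vehicle mean (log2) on the 4 arrays for Il10ra (thick black line) and the 6 genes nearest to it. All 7 dip on the 10 µM array, Il10ra to -2.72, and lie between -0.37 and 0.02 on the 20 µM array.

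Other receptors were looked at through lists of names. Unlike the 10, many were dim: 11 of 21 of the type I family were at least as bright as the median probe set. So were 4 of 9 of the type II family and 15 of 23 of other families. Of the 234 genes lower by 1 or more at 10 µM, 225 were at least that bright, so a count of 0 says little about dim genes. Of 21 further receptors of the type I family, to which the interleukin-4, interleukin-6 and granulocyte-macrophage chains belong, 0 differed by 1 or more at 10 µM, and their medians were 0.01 at 10 µM and 0.11 at 20 µM. Il12rb2, a chain of the interleukin-12 receptor, was furthest from vehicle in that list with 0.83 at 10 µM. The 9 further receptors of the type II family, to which the interleukin-10 and interferon chains belong, had medians of 0.13 and -0.05, again with 0 past 1. Ifnlr1, the specific chain of the lambda interferon receptor, was its furthest gene at -0.70. Of 23 receptors of other cytokine and growth factor families, 1 was past 1, and the medians were -0.05 and 0.09. This was Il18rap, the accessory chain of the interleukin-18 receptor, which measured 6.39 and 6.79 under vehicle, 4.75 at 10 µM and 7.03 at 20 µM. Since its 10 µM value was under the median of all values, it is given without a fold.

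The ligands of the 10 receptors were mostly dim, only 9 of the 19 measured being at least as bright as the median probe set. Their medians were 0.11 at 10 µM and 0.11 at 20 µM, and 0 were past 1. Csf1, the ligand of Csf1r, was the furthest from vehicle and measured 9.81 and 10.03 under vehicle, 10.49 at 10 µM and 10.09 at 20 µM. Il10 itself was dim, with 3.31 and 3.45 under vehicle, 3.66 at 10 µM and 3.51 at 20 µM.

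Of the kinases and factors that carry the signal, 9 JAK and STAT genes had medians of -0.20 and -0.11, with 0 past 1. Jak2 was highest against vehicle at 10 µM with 0.47, and Stat3, which the interleukin-10 and interleukin-6 receptors use, differed by -0.30 and -0.11 where the vehicle arrays differed by -0.26. Among 17 inhibitors of this pathway the medians were 0.00 and 0.03, and 1 was past 1 at 10 µM. Ptpn6, the phosphatase SHP-1, measured 10.57 and 10.52 under vehicle, 9.20 at 10 µM and 10.65 at 20 µM, a difference of -1.34 at the lower dose. Its 20 µM array was above both vehicle arrays.

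Target genes did not share a direction at 10 µM. Of 15 genes listed as targets of interleukin-10 and STAT3, Il4ra among them, 1 was higher and 2 were lower by 1 or more, with medians of 0.00 and 0.06. Fcgr1, a high-affinity immunoglobulin receptor, was higher by 2.37, while Ddit4 differed by -2.20 and Il1rn, the interleukin-1 receptor antagonist, by -1.23. Of 16 targets of interleukin-4, interleukin-13 and STAT6, 0 were past 1, the medians being 0.01 and -0.06, and Tfec was furthest at 0.64. Of 10 regulators of Csf1r transcription, with medians of -0.09 and -0.16, Ets2 was higher by 1.60 and Mef2c differed by -1.33 at 10 µM. Averaging the probe sets of each gene gave medians of -0.0169 and -0.00963, and -0.97 for Mef2c at 10 µM. Spi1, which encodes PU.1, differed by 0.16 and 0.11. Among 11 enzymes and adaptors of receptor shedding and turnover the medians were 0.06 and -0.05, with 0 past 1 and Stam, an endosomal sorting adaptor, furthest at 0.74. At 20 µM 0 genes of any of these 10 lists were past 1.

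Microglial and macrophage markers were checked for the labelled cell type. Of 13 measured, Csf1r included, 10 were at least as bright as the median probe set, beside 12794 of all 22180 genes. Cd68 was the brightest, at 13.51 and 13.55 under vehicle, 13.53 at 10 µM and 13.50 at 20 µM. P2ry12, Tmem119 and Adgre1 were below the median probe set, with means of 4.50, 4.68 and 4.54. The medians of the list were -0.15 at 10 µM and -0.00 at 20 µM, and 1 gene was past 1 at 10 µM, the lipopolysaccharide co-receptor gene Cd14 at -1.16. In bulk RNA, fewer cells that express a gene and less of its RNA per cell cannot be told apart. Markers of astrocytes (6 measured), neurons (6), oligodendrocytes (5), endothelium and fibroblasts (8) and lymphocytes (5) had 10 µM medians of -0.04, 0.04, 0.10, 0.11 and -0.05. Their 20 µM medians were -0.12, 0.05, 0.08, 0.17 and 0.10, and 0 of them were past 1 at either dose. The furthest at 10 µM were Aqp4 at -0.41, Tubb3 at -0.49, Mbp at -0.46, Cdh5 at 0.42 and Cd3e at 0.44. All but Mbp had means under the median probe set, and the vehicle arrays differed by -0.81 in Cdh5. At least as bright as the median probe set were 2 astrocyte, 3 neuron, 4 oligodendrocyte, 3 endothelial and fibroblast and 1 lymphocyte markers. Brightness past the median therefore does not by itself tell these cell types apart.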

How the data were processed

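Each deposited value is the log2 expression of a probe set on 1 of 4 arrays. Per the submitters' processing notes, the software was Affymetrix Expression Console (version 1.2.1.20) with RMA. RMA forces the arrays to the same distribution and so hides any change common to most genes. Array medians lay between 5.02 and 5.06, and with so few arrays precision is limited by their number. The values carry no detection call. Of 41345 probe sets, 23521 had exactly 1 gene symbol in the array annotation, 1814 had several and 16010 were unnamed here. The probe set with the highest mean stood for a gene, which left 22180 genes.

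Nimodipine was compared with vehicle by limma 3.58.1 (R 4.3.3, lmFit and eBayes, tested on simulated data), 2 arrays against 2, with Benjamini-Hochberg adjustment over all genes at 0.05. The simulation gave both nimodipine arrays the same change, so it does not show how the fit performs where the doses differ. As no label states separate cultures, p-values reflect only array-to-array spread, possibly technical. Each dose has 1 array, so its difference from the vehicle mean is given as a description, and fits that leave out the other dose serve only as alternatives. Genes past a log2 difference of 1 were counted, with the share of all genes beside them. Values at or above 5.04, the median of the probe set means, count as not dim. This median was taken over all probe sets, unnamed ones included, and 12794 of the 22180 genes reached it.

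The 10 genes and 17 lists were chosen with earlier results of these data known, and 1 of the lists is not reported here. Named besides the 10 were, per list, up to 4 genes past 1 at 10 µM or else the furthest gene, the 6 genes nearest to Il10ra among genes that are not dim, predicted genes and small RNAs passed over, and Csf2rb2. Cd68, P2ry12, Tmem119, Adgre1, Il10, Stat3, Spi1 and Ifngr2 were added after their values were seen. Alternatives were filters, probe set rules, normalizations, eBayes settings, dose as a number, 3 groups, and leaving out each array. Gene symbols came from the array annotation and promoters from RefSeq (GRCm38.p6). Listed genes with no probe set of 1 symbol were not analysed here.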

Additional observations from a re-analysis of the deposited data

Results flagged for a closer look

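For 4 of the 10 receptor genes the 10 µM and 20 µM arrays lay outside the vehicle arrays on opposite sides, as they did for 18.9% of all genes, and the difference between the doses was not tested. Csf2ra differed from the vehicle mean by 0.74 at 10 µM and -0.22 at 20 µM. Csf1r differed by -0.28 and 0.09 at these doses. Il6st differed by 0.18 and -0.13. Il10rb differed by -0.12 and 0.07.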

How the results depend on the processing

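No paired analysis was possible because each nimodipine group holds 1 array, whose title carries no replicate number, so fewer than 2 numbers are shared with vehicle. limma called 0 genes under every alternative that kept all arrays except the fit of 3 groups, which called 12, with 0 of the 10 receptor genes among them (a lone array is then assumed to vary like the vehicle pair). Leaving out each array in turn gave 0 to 353 genes, the 353 without the 20 µM array and 0 without any of the others. A difference of 0.5 in place of 1 counted 4 receptor genes at 10 µM, beside 10.1% of all genes, and 0 at 20 µM. With equal array medians the receptor genes' median at 10 µM was -0.348, and with cyclic loess the median at 20 µM was -0.0766. For nimodipine against vehicle, Il10rb turned to 0.00706 with loess and Il6st to -0.0113 with equal medians. Fitted against dose as a number, in log2 units per µM, the slopes of Il10rb (0.00221), Il6st (-0.00448), Csf1r (0.00146) and Csf2ra (-0.00346) had signs opposite to their differences. Leaving out each array in turn, the differences ran from -2.72 to 0.0182 for Il10ra, -0.119 to 0.0725 for Il10rb, -0.147 to 0.0165 for Il13ra1, -0.134 to 0.177 for Il6st, -0.285 to 0.0891 for Csf1r and -0.224 to 0.737 for Csf2ra, each turning sign without the 10 µM array. They ran from -1.62 to -0.277 for Il6ra, -0.767 to -0.317 for Csf2rb, -0.482 to -0.0952 for Ifngr1 and -0.381 to -0.318 for Il4ra, with no turn of sign. Without the 10 µM array only the 20 µM array stood for nimodipine, so each value is then its difference from the vehicle mean. Why the doses differed was not tested. Il10ra at 10 µM lay between -2.75 and -2.68 under all alternatives run. With probe sets averaged per gene, an alternative chosen for list medians after seeing the data, the 10 µM median was 0.0422 for ligands and -0.0656 each for pathway inhibitors and interleukin-10 targets. List medians also depended on which vehicle array was left out. At 10 µM they then ran from -0.128 to 0.0991 for receptors of other families. For further receptors of the type II family they were 0.0423 and 0.0813, both under the 0.13 found with both vehicle arrays.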
